A study of Mus musculus with 2 samples.

Results

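The mitochondrial genome carries the 37 genes whose symbols begin with mt- in the deposited tables. They were taken by these symbols in the GENCODE M21 annotation of the mouse genome assembly GRCm38 (mm10). They are 13 genes for messenger RNAs, 2 for ribosomal RNAs (rRNAs) and 22 for transfer RNAs (tRNAs), among 43346 Ensembl genes in all. The samples were 2 forebrains of embryos of mouse strain B6NCrl, a C57BL/6 substrain, at embryonic day 14.5. The labels name no mutation and no treatment, and the samples form 1 group with biological replicate numbers 1 and 2. Each was labelled as a single forebrain, and the collection days differ. The labels also give both the same donor identifier and call the sex pooled male and female, which does not go with a single forebrain, so whether a library holds 1 embryo or more is not settled. The libraries are called embryos here, after the first of these labels. Total RNA longer than 200 nt was extracted with the Ambion mirVana method, 10 ng went into each library, and a protocol named after Smart-seq was linked. Spike-in RNAs, synthetic RNAs of known amount, were added to each.

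The mitochondrial genome is a small circular DNA that is present in many copies per cell. It encodes core subunits of complexes I, III, IV and V of the respiratory chain, the enzymes of the inner membrane that pass electrons to oxygen and make ATP, and the rRNAs and tRNAs with which mitochondria translate those subunits. All other subunits of these complexes come from nuclear genes. Each strand is transcribed as a long precursor. Most tRNAs sit between the other genes, and their excision frees the mRNAs and rRNAs, most of which then receive A tails of their own. Neurons are among the cells that depend most on this chain, while dividing progenitors of the embryonic forebrain rely more on glycolysis.

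The 2 libraries summed to 35310017 expected counts in replicate 1 and 29250404 in replicate 2, where an expected count is the quantifier's estimate of a gene's reads and can hold fractions. Levels are given in TPM, a measure of transcript abundance that divides reads by the effective length of a gene, is scaled to a constant sum per library and can be compared between genes. The tissue label was checked against marker genes. Neurod6, a transcription factor of cortical neurons, had 372 and 396 TPM, and Tubb3, a tubulin of neurons, had 1486 and 1666 TPM, in replicate 1 and replicate 2. Hoxa3 and Hoxb3, of the hindbrain and spinal cord, and Prl, of the pituitary, were at 0 in both, and En2, Alb and Myh1 were at most 0.09 TPM. The red blood cell gene Hba-a2 had 5084 and 6288 TPM. With 1 group of 2 libraries no p-value under 0.05 can be reached, since an exact test cannot go below 0.5. Differences are therefore set against the spread of the 2 libraries and against the intervals deposited with each TPM.

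Several mitochondrial genes have a nearly perfect copy in the nuclear genome, and the ends of these genes show how little there is for a read to tell them apart. All sequences here were read 5′ to 3′ from the GENCODE M21 transcripts. The first set compares the start of mt-Nd3 (chrM:9459-9498, plus strand) with the start of its nuclear copy Gm28438 (chr1:24613080-24613119, minus strand), with the substituted base in capitals.
mt-Nd3 start: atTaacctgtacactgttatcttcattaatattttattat
Gm28438 start: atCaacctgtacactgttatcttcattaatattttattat
The substitution is T3C, counted from 1 at the first base of mt-Nd3. It was the 1 base that differed over the 345 aligned bases, an identity of 99.7%. The second set gives the end of mt-Co3 (chrM:9350-9390, plus strand) and of its copy Gm28437 (chr1:24613189-24613228, minus strand). The capital is the last base of mt-Co3, which the annotated copy does not hold.
mt-Co3 end: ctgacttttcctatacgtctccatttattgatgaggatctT
Gm28437 end: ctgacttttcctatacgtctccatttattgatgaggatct
The 783 bases of Gm28437 were identical to mt-Co3 throughout. The third set gives the end of mt-Atp6 (chrM:8565-8607, plus strand) and of Gm10925 (chr1:24613974-24614013, minus strand), with the stop codon that only the mitochondrial gene model includes in capitals.
mt-Atp6 end: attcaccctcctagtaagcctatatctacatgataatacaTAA
Gm10925 end: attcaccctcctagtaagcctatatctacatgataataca
Read alone, a 100-nt read inside the identical stretches carries no base that assigns it to 1 of the genes in a pair.

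The same transcripts show the compact layout of the mitochondrial genome. Of the 13 mRNA genes, 8 end in TAA, 2 in TAG (mt-Nd1 and mt-Nd2) and 3 (mt-Co3, mt-Nd4 and mt-Cytb) in a lone T, which becomes a full stop codon when the A tail is added to the cleaved RNA. The ends of mt-Nd4 (chrM:11515-11544) and mt-Cytb (chrM:15259-15288) are shown with that T in capitals, beside the end of mt-Nd5 (chrM:13536-13565) with its encoded stop in capitals, all on the plus strand.
mt-Nd4 end: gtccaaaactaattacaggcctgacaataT
mt-Cytb end: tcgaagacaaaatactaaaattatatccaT
mt-Nd5 end: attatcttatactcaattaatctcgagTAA
Start codons were ATG in 9 genes, GTG in mt-Nd1, ATA in mt-Nd2, ATT in mt-Nd3 and ATC in mt-Nd5. In mammals, 2 pairs of adjacent genes share 1 mRNA each and overlap in different reading frames, and the overlaps are shown in capitals at the end of mt-Atp8 (chrM:7915-7969) and mt-Nd4l (chrM:10155-10173), both on the plus strand.
mt-Atp8 end: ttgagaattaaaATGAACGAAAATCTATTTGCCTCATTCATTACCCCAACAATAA
mt-Nd4l end: caacctactacaATGCTAA
The overlap of mt-Atp8 with mt-Atp6 was 43 bases and that of mt-Nd4l with mt-Nd4 was 7 bases. Both are shorter than a read, so no 100-nt read fits inside the overlap alone.

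None of the 22 tRNA genes could receive a value. They are 59 to 75 nt long, shorter than a read, and each had an effective length of 0 and 0 reads in both libraries. The shortest is mt-Ts2, a serine tRNA (chrM:11613-11671, plus strand), and the longest mt-Tl1, a leucine tRNA (chrM:2676-2750, plus strand), shown whole because their length decides this.
mt-Ts2: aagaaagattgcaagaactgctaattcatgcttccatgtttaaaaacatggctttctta
mt-Tl1: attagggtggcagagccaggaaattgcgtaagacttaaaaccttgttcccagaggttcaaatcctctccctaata
RNA under 200 nt was also removed before the libraries were made. The zeros of these 22 genes therefore say nothing of the level of tRNAs, and the results below concern the other 15 genes, each with 1 transcript. Of all 37 genes, 28 lie on the plus strand and 9, mt-Nd6 and 8 tRNA genes, on the minus strand.

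The 15 genes with values took 725908 reads in replicate 1 and 397008 in replicate 2. That is 2.06% of all expected counts in replicate 1 (95% Wilson interval 2.05 to 2.06) and 1.36% in replicate 2 (1.35 to 1.36), where the intervals cover counting error only. Per length, their share of the TPM sum was 3.93% for replicate 1 and 2.96% for replicate 2, a mean of 3.45% ± 0.686 (SD, n = 2). The rRNAs mt-Rnr1 and mt-Rnr2 made up 31.1% of mitochondrial reads in replicate 1 (95% Wilson interval 31.0 to 31.2) and 28.8% in replicate 2 (28.6 to 28.9). The mRNAs therefore held most of the mitochondrial reads in each library. This division is that of the reads, and the part of the library protocol in it was not tested. Summed over genes, the mRNAs had 31845 and 24736 TPM and the rRNAs 7498 and 4912 TPM in replicate 1 and replicate 2. In bulk tissue, fewer cells of a type and less RNA per cell cannot be told apart.

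A block of chromosome 1 held further reads with mitochondrial sequence. A search of the GENCODE M21 transcripts for nuclear genes that match a mitochondrial gene at 90% identity or more over 100 bases or more found 17, of which 15 were in the tables. Only 6 of these had over 1000 reads in each library, and the other 9 had at most 21.18. All 6 belong to a run of 7 unprocessed pseudogenes on the minus strand of chromosome 1, within chr1:24611535-24616197. The run spans 4663 bases, in the same gene order as mt-Co1 to mt-Nd4. None of the 7 was matched to mt-Atp8, which lies within that order. Nuclear insertions without an annotated transcript were not looked for. Together the 15 annotated copies took 281856 reads in replicate 1 and 150645 in replicate 2. That is 28.0% (95% Wilson interval 27.9 to 28.1) and 27.5% (27.4 to 27.6) of the reads of mitochondrial genes and copies combined, a mean of 27.7% ± 0.326 (SD, n = 2). The share was close between embryos although the total differed. These copies alone held 40.1% of all pseudogene TPM in replicate 1 and 35.2% in replicate 2.

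How the reads of a pair were divided differed greatly from gene to gene. Gm28437, the copy of mt-Co3, had 171686 and 80607 reads in replicate 1 and replicate 2, against 32849 and 26778 for mt-Co3 itself, so that 83.9% and 75.1% of the pair's reads lay on the copy. Gm10222, the copy of mt-Nd4l (100% identical over 294 bases, chr1:24612407-24612700), took 93.9% and 89.4%. Gm28438, the copy of mt-Nd3, took 73.1% and 64.9%. In these 3 pairs, and in that of mt-Co2, the larger share was given to the pseudogene in both libraries. Gm28661, the copy of mt-Co2 (100% identical over 681 bases, chr1:24614885-24615565), took 60.2% and 55.8%. Gm10925, the copy of mt-Atp6, took the smaller share, 33.1% and 40.7%. Gm28439 is identical to the first 876 bases of mt-Nd4 (chr1:24611535-24612410), and yet it was given 3.32 and 3.76 reads.

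The deposited posterior values put a size on this uncertainty. Beside each expected count stood a posterior mean count and its standard deviation, which measures how far the data leave the division of shared reads undecided. For mt-Co3 the posterior SD was 64.0% of the posterior mean in replicate 1 and 58.4% in replicate 2, and for mt-Nd4l it was 54.7% and 43.6%. It was 34.9% and 26.8% for mt-Co2, 19.1% and 24.4% for mt-Atp6, and 15.8% and 18.6% for mt-Nd3. In the other 10 genes it was at most 0.324%. The sum of a pair was not affected, since mt-Co3 and Gm28437 together had 204535 reads in replicate 1 and 107385 in replicate 2 under expected and posterior counts alike. The posterior mean placed 63.5% and 60.1% of that pair on the copy, below the expected counts. For mt-Co2 it placed 47.0% and 46.9% on the copy, which there was the smaller share. The pair of mt-Co1 was divided with little uncertainty. Gm29216 (chr1:24615706-24616197) aligns to bases 1063 to 1545 of mt-Co1 with 99.8% identity. The 1 substitution within the 483 aligned bases is A1066T, counted from the first base of mt-Co1. It took 18.5% and 25.6% of the reads of that pair, and the posterior SD of mt-Co1 was 0.21% and 0.32% of its mean. Which genome the reads came from was not tested, and levels are given below as deposited and with the reads of the copies added.

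**Figure D1:**
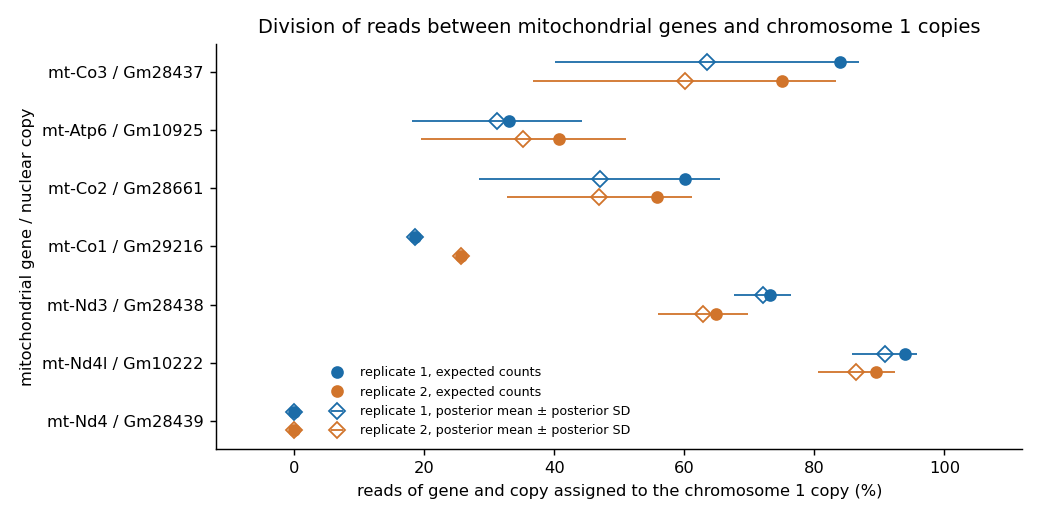
Percent of the reads of a mitochondrial gene and its chromosome 1 copy that were assigned to the copy (horizontal axis), for the 7 pairs ordered by the reads of the copy (vertical axis), with replicate 1 above replicate 2 in each pair. Filled circles are expected counts, and open diamonds with bars are the posterior mean ± the posterior SD. The share ran between 93.9% for mt-Nd4l and practically 0 for mt-Nd4, and the bars are wide for mt-Co3, mt-Atp6 and mt-Co2.

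The rRNAs are described first. mt-Rnr2 (ENSMUSG00000064339, chrM:1094-2675), the rRNA of the large subunit of the mitochondrial ribosome, had 5476 TPM in replicate 1 and 3627 TPM in replicate 2. mt-Rnr1 (ENSMUSG00000064337, chrM:70-1024), the rRNA of the small subunit, had 2021 and 1285 TPM. Both were higher in replicate 1, with no overlap of the deposited intervals. Within each library mt-Rnr2 exceeded mt-Rnr1 by a log2 ratio of 1.438 in replicate 1 and 1.497 in replicate 2, a mean of 1.47 ± 0.04 (SD, n = 2). The genes are neighbours on the precursor, and 1 copy of each is used per ribosome. Their TPM lay apart in both libraries, and whether the library protocol captures both RNAs equally was not tested.

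Complex I, the NADH dehydrogenase that starts the chain, has 7 mitochondrial subunits. mt-Nd1 (chrM:2751-3707) had 3131 TPM in replicate 1 and 2406 TPM in replicate 2, and mt-Nd4 (chrM:10167-11544) had 1815 and 1419 TPM. mt-Nd2 (chrM:3914-4951) had 863 and 710 TPM, and mt-Nd5 (chrM:11742-13565) had 466 and 347 TPM. All 4 encode subunits of the proton-pumping membrane arm, and each was higher in replicate 1. mt-Nd3 (chrM:9459-9806) had 404 and 402 TPM as deposited, against 1504 and 1144 TPM with the reads of Gm28438 added. mt-Nd4l (chrM:9877-10173), the shortest of these 7 genes, had 68.9 and 90.8 TPM as deposited, against 1132 and 857 TPM with those of Gm10222. The copies changed mt-Nd4l most, by 16.4-fold and 9.44-fold, and mt-Nd3 by 3.72-fold and 2.85-fold.

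mt-Nd6 is the mRNA gene of the minus strand (ENSMUSG00000064368, chrM:13552-14070). It had 413 TPM in replicate 1 and 290 TPM in replicate 2, against a median of 1837 and 1452 TPM over the other 12 mRNA genes, a log2 ratio of -2.15 and -2.32 (mean -2.24 ± 0.12, SD, n = 2). The difference was called in both libraries, and with the copies added to the other genes it was -2.72 ± 0.01. Its letters are those of the opposite strand. mt-Nd6 has 5.97% C, 28.1% G and 43.7% T, whereas the other 12 mRNAs have 22.1 to 30.0% C, 5.88 to 16.1% G and 27.4 to 32.8% T. GC content did not set it apart, at 34.1% within their 31.9 to 41.1%. The longest run of A was 3 bases in mt-Nd6 and 4 to 8 in the other mRNAs. mt-Nd5 and mt-Nd6 overlap by 14 bases on opposite strands. The sources used here do not say whether counting used the strand. Without it, reads of mt-Nd6 and of RNA antisense to it cannot be told apart.

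Complex III contains 1 mitochondrial subunit, cytochrome b. mt-Cytb (ENSMUSG00000064370, chrM:14145-15288) had 4553 TPM in replicate 1 and 3034 TPM in replicate 2. Nuclear copies left it untouched at this precision, and it ranked 17 and 25 among all genes by TPM in replicate 1 and replicate 2.

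The 3 mitochondrial subunits of complex IV, cytochrome c oxidase, form its catalytic core. mt-Co1 (ENSMUSG00000064351, chrM:5328-6872), which holds the site where oxygen is reduced, had 1860 TPM in replicate 1 and 1050 TPM in replicate 2. mt-Co2 (chrM:7013-7696), which takes electrons from cytochrome c, had 1813 and 1484 TPM, and mt-Co3 (chrM:8607-9390) had 2096 and 2219 TPM. As deposited, these 3 genes lay close together in replicate 1, while in replicate 2 mt-Co1 was the lowest, with an interval below that of mt-Co2. With the copies added the levels were 2283 and 1412 TPM for mt-Co1, 4552 and 3359 TPM for mt-Co2, and 13048 and 8898 TPM for mt-Co3. The deposited interval of mt-Co3 ran from 1595 to 10076 TPM in replicate 1 and from 1029 to 7000 TPM in replicate 2. Its posterior SD, relative to the posterior mean, was the largest of the 15 genes in both libraries.

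In complex V, the ATP synthase, mitochondrial genes supply subunits of the membrane sector. mt-Atp8 (ENSMUSG00000064356, chrM:7766-7969) had 7007 TPM in replicate 1 and 6236 TPM in replicate 2, and mt-Atp6 (chrM:7927-8607), the subunit of the proton channel, had 7356 and 5049 TPM. Among all genes by TPM, mt-Atp8 ranked 8 in replicate 1 and 7 in replicate 2, and mt-Atp6 ranked 7 and 13. The log2 ratio of mt-Atp8 to mt-Atp6, which share an mRNA, was -0.07 in replicate 1 and 0.30 in replicate 2, and the pair was not called. With the reads of Gm10925 added it was -0.65 and -0.45, and mt-Atp8 was called lower. mt-Atp8 is 204 bases long with an effective length of 105, so its TPM rests on a short stretch. For mt-Nd4l and mt-Nd4, which also share an mRNA, the log2 ratio was -4.72 and -3.97 as deposited and -0.68 and -0.73 with the copies added, called both ways. Adding the copies thus brought the members of this pair from a mean of -4.34 ± 0.53 to -0.70 ± 0.03 (SD, n = 2).

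**Figure D2:**
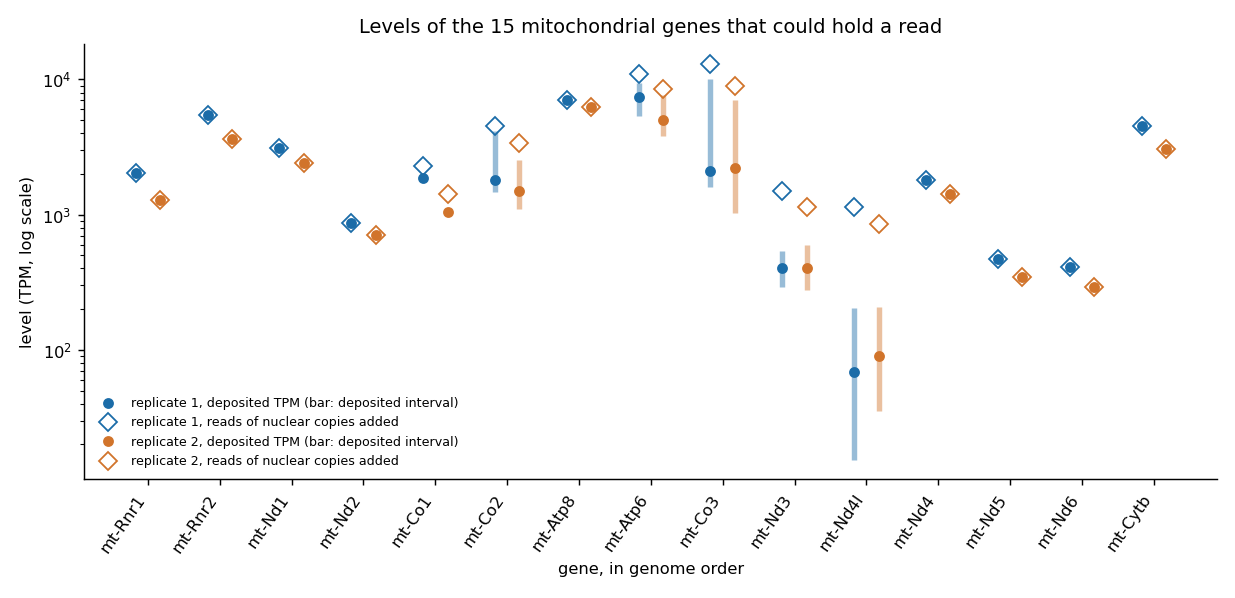
Levels of the 15 mitochondrial genes with values (vertical axis, TPM, log scale) in genome order (horizontal axis), with replicate 1 left of replicate 2. Filled circles are deposited TPM, thick bars the deposited TPM intervals (hidden by the circles where narrow), and open diamonds the TPM with the reads of nuclear copies added. The diamonds leave the circles for mt-Co1, mt-Co2, mt-Atp6, mt-Co3, mt-Nd3 and mt-Nd4l, and for mt-Nd4l the shift is more than 10-fold in replicate 1.

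Ordered by mean TPM as deposited, the genes ran from mt-Atp8 (6621 ± 545 TPM), mt-Atp6 (6202 ± 1632), mt-Rnr2 (4552 ± 1308), mt-Cytb (3793 ± 1074) and mt-Nd1 (2769 ± 512) through mt-Co3, mt-Rnr1, mt-Co2, mt-Nd4, mt-Co1 and mt-Nd2 to mt-Nd5 (407 ± 84.2), mt-Nd3 (403 ± 1.71), mt-Nd6 (351 ± 87.3) and mt-Nd4l (79.8 ± 15.5), all SD with n = 2. Only 6 of the 14 neighbouring pairs had intervals that lay apart, with the same gene higher, in each library. The pairs that did not were mt-Atp8 with mt-Atp6, all neighbours from mt-Nd1 down to mt-Co1, mt-Nd5 with mt-Nd3, and mt-Nd3 with mt-Nd6. The range was 83.0-fold. With the copies added, mt-Co3 came first (10973 ± 2935 TPM), followed by mt-Atp6 (9754 ± 1748) and mt-Atp8, and mt-Nd6 came last. The range was then 31.2-fold, and by counting intervals 12 of 14 neighbours lay apart, all but mt-Co2 with mt-Cytb and mt-Rnr1 with mt-Nd4. mt-Nd4l moved from the last place to above mt-Nd2, at 994 ± 195 TPM.

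The embryos differed in their mitochondrial RNA. As TPM, 13 of the 15 genes were higher in replicate 1, by a median log2 ratio of replicate 1 over replicate 2 of 0.38, whereas the median was -0.14 over the 11010 genes whose TPM averaged 5 or more. The exceptions were mt-Co3 (-0.08) and mt-Nd4l (-0.40), both with copies. With the copies added, 15 of 15 were higher in replicate 1, with a median of 0.43 and a range of 0.17 to 0.69. For comparison, the central 95% of all genes spanned -0.69 to 0.40. With 1 library on each side, this difference has no replicate check.

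By the rule used to call a gene different (1.5-fold or more, deposited intervals apart, an average TPM of at least 5), 4 of the 15 were called, all higher in replicate 1. Over all genes, 61 were called higher in replicate 1 (0.554%), 557 were called lower (5.06%), and 618 were called in either direction (5.61%). The called genes were mt-Co1, with a log2 ratio of 0.82 as deposited and 0.69 with its copy, mt-Rnr1 (0.65), mt-Rnr2 (0.59) and mt-Cytb (0.59). The last 2 stand just above the fold required, at ratios of 1.510 and 1.501, and mt-Atp6 (1.46) and mt-Nd6 (1.43) stand just below it. The same 4 were called with the copies added. In 10 of the 15 the deposited intervals lay apart, and among these the smallest ratio was that of mt-Atp8 (1.12). The 5 genes whose intervals overlapped, mt-Co2, mt-Atp6, mt-Co3, mt-Nd3 and mt-Nd4l, were the 5 with a large posterior SD.

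**Figure D3:**
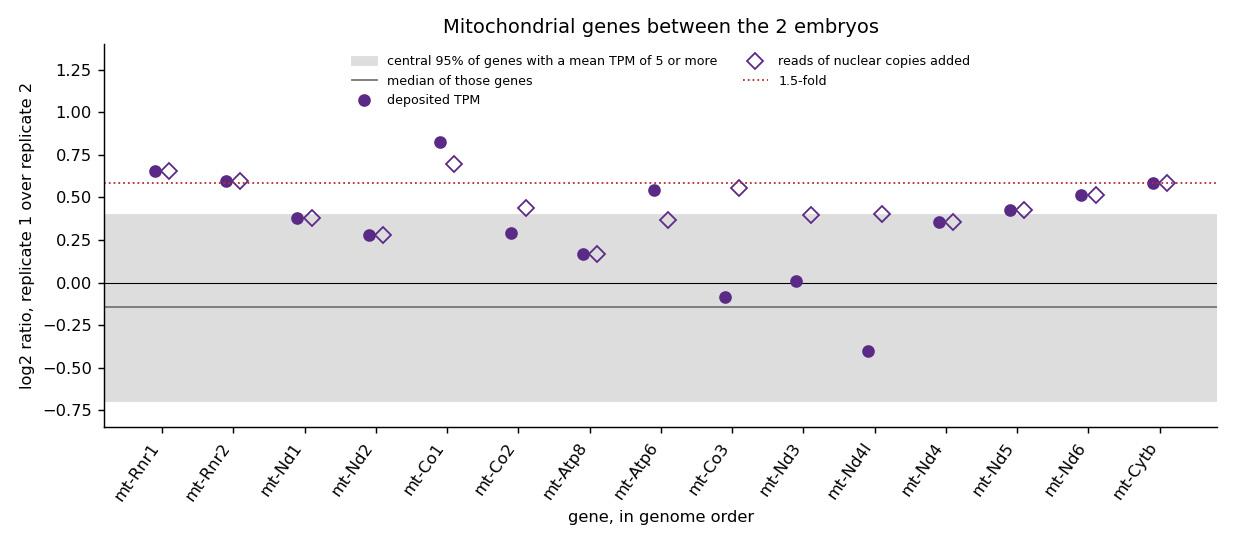
The log2 ratio of TPM, replicate 1 over replicate 2, for each mitochondrial gene with values (vertical axis) in genome order (horizontal axis). Filled circles are deposited TPM and open diamonds the TPM with the reads of nuclear copies added. The grey band spans the central 95% of genes whose TPM averaged 5 or more, the grey line their median and the dotted line a 1.5-fold ratio. All diamonds lie above 0, and mt-Co1 has the highest ratio.

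Several measures are set beside this difference. Nuclear protein-coding genes of short effective length were also higher in replicate 1, with a median log2 ratio of 0.26 under 500 nt (201 genes), 0.11 between 500 and 1000 nt (926 genes), -0.07 between 1000 and 2000 nt (2887 genes), -0.19 between 2000 and 4000 nt (4337 genes) and -0.30 above 4000 nt (2015 genes). Against the median of the genes of their own length range, a comparison chosen after the values were seen, 11 of 15 mitochondrial genes were higher as deposited and 14 of 15 with the copies added, the exception being mt-Atp8. mt-Rnr2 and mt-Co1, both in the range of 1000 to 2000 nt, stood 0.66 and 0.89 above that median on the log2 scale. Hba-a2 and Hbb-bs, hemoglobin genes of red blood cells, went the other way, with 5084 and 2370 TPM in replicate 1 and 6288 and 3273 TPM in replicate 2. The endothelial gene Cldn5 had 76.7 and 83.8 TPM, and C1qb, of microglia, had 38.1 and 38.5 TPM, in replicate 1 and replicate 2. The part of transcript length and of cell makeup in the mitochondrial difference was not tested.

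Spike-ins give a scale outside the tissue RNA. They took 1.87% of counts in replicate 1 and 2.19% in replicate 2. Per spike-in count, the mitochondrial genes had 1.10 counts in replicate 1 and 0.620 in replicate 2, or 1.53 and 0.855 with the copies, while all other genes had 51.0 and 43.8. On this scale both sets were higher in replicate 1, and the ratio between embryos was larger for the mitochondrial set. The median log2 ratio of the 15 genes was 0.72 when scaled to spike-ins and 0.56 with TMM scaling, and that of all genes was 0.19 and 0.04. Under each of these scalings, 14 of the 15 genes were higher in replicate 1.

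The nuclear partners of these subunits were also higher in replicate 1, by less. Of 76 nuclear genes for subunits of complexes I to V, 65 were higher in replicate 1, with a median log2 ratio of 0.15, and none was called. Over all genes tested the median was -0.14, and 75% of them had a log2 ratio of at most 0.02. Among all genes tested, 0.554% were called higher in replicate 1 and 5.06% lower. The first of these shares gives few or no calls among 76 genes, whereas the second gives several. None of the 76 was called lower in replicate 1. The median was 0.22 for the 36 nuclear subunits of complex I, 0.08 for 9 of complex III, 0.13 for 11 of complex IV and 0.15 for 16 of complex V. It was 0.02 for the 4 subunits of complex II, succinate dehydrogenase, which is wholly nuclear-encoded. Relative to the median of their length range, 44 of the 76 were higher in replicate 1. A median has as many genes of its range above it as below, and 44 of 76 lies near that even division. Whether the mitochondrial and nuclear sets differ beyond the spread of such sets was not tested.

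Within a library, the median mitochondrial subunit stood above the median nuclear subunit of the same complex, most in complexes III and V. For complex I the median was 466 and 402 TPM over the 7 mitochondrial subunits and 308 and 260 TPM over the 36 nuclear ones in replicate 1 and replicate 2, a log2 ratio of 0.61 ± 0.02 (SD, n = 2). For complex IV it was 1860 and 1484 TPM over 3 mitochondrial subunits and 763 and 665 TPM over 11 nuclear ones (1.22 ± 0.09). For complex III, mt-Cytb at 4553 and 3034 TPM stood against a median of 400 and 386 TPM over 9 nuclear subunits (3.24 ± 0.38). In complex V the 2 mitochondrial subunits had a median of 7181 and 5643 TPM and the 16 nuclear ones 609 and 548 TPM (3.46 ± 0.14). Adding the copies raised the ratio to 1.80 ± 0.11 in complex I, 2.46 ± 0.17 in complex IV and 3.82 ± 0.10 in complex V.

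The sets overlapped in part. The 76 nuclear subunits had mean levels of 55.1 TPM (Ndufb4, an accessory subunit of complex I) to 1960 TPM (Atp5b, the catalytic beta subunit of ATP synthase), with a median of 375 TPM. As deposited, 5 of the 13 mitochondrial mRNAs exceeded Atp5b, and 6 did with the copies added. mt-Nd4l as deposited lay near the lowest nuclear subunits. Among the nuclear genes, the highest were Ndufc1 (671 ± 84.7 TPM), Ndufb9 (524 ± 34.4) and Ndufb8 (478 ± 52.6) in complex I, Sdhb (441 ± 12.0), Sdhc (252 ± 0.049) and Sdhd (217 ± 3.40) in complex II, and Uqcr11 (639 ± 147), Uqcrq (609 ± 97.1) and Uqcr10 (517 ± 82.9) in complex III. In complex IV they were Cox6b1 (1069 ± 149), Cox6a1 (961 ± 53.3) and Cox4i1 (882 ± 38.3), and in complex V Atp5b (1960 ± 41.7), Usmg5 (1276 ± 32.4) and Atp5g3 (789 ± 100.1), all SD with n = 2.

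**Figure D4:**
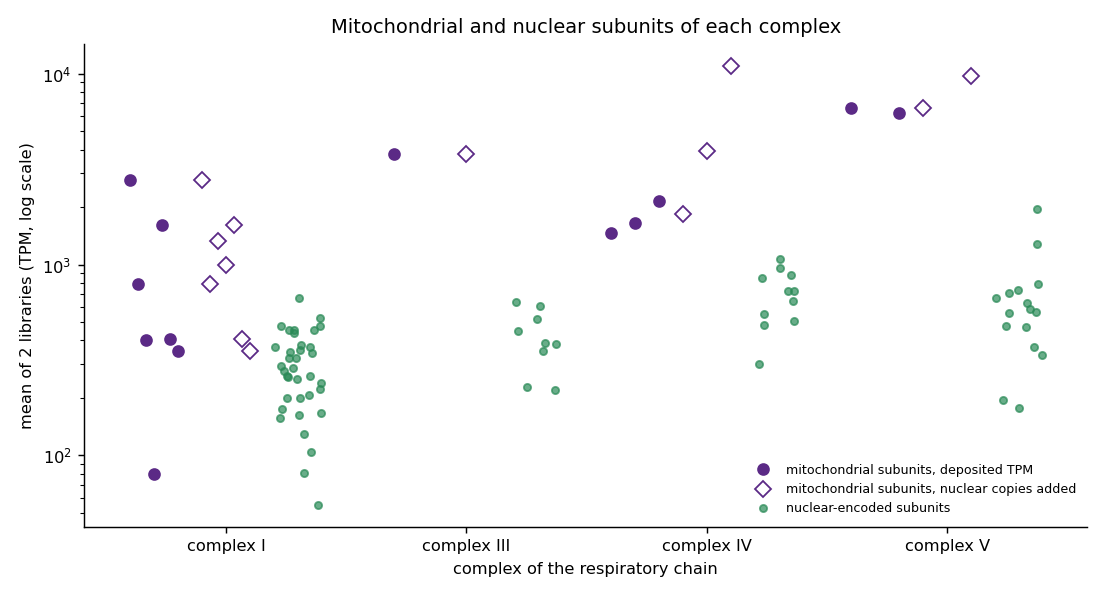
Mean TPM of the 2 libraries (vertical axis, log scale) for each subunit of complexes I, III, IV and V (horizontal axis). Filled circles are mitochondrial subunits as deposited, open diamonds the same with the reads of nuclear copies added, and small green circles nuclear subunits, spread sideways for legibility. In complexes III, IV and V every mitochondrial subunit lies above every nuclear one, whereas in complex I the sets overlap.

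Nuclear genes that act on mitochondrial DNA and RNA were expressed far below the mitochondrial genes, and most did not differ between embryos by the rule above. The 14 genes of mitochondrial DNA replication and transcription had a median of 20.7 TPM in replicate 1 and 22.6 TPM in replicate 2. Their highest members were Ssbp1, which binds single-stranded mitochondrial DNA (106 ± 12.4 TPM), Mterf3 (58.9 ± 3.13), a repressor of mitochondrial transcription, and Tfam (50.8 ± 6.89), which packs mitochondrial DNA and activates its transcription. The 25 genes of RNA processing and stability had a median of 23.4 and 25.4 TPM. Slirp, the partner of Lrpprc in stabilising mitochondrial mRNAs, had 218 ± 33.5 TPM, Hsd17b10, a subunit of mitochondrial RNase P, had 121 ± 6.42 TPM, and Fastk, an RNA-binding protein of mitochondria, had 77.5 ± 4.34 TPM. None of the genes of either list was called, against 5.61% of all genes, a share that gives few or no calls in lists of 14 and 25, and the median log2 ratios were -0.05 and -0.11, near the -0.14 of all genes.

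Translation and mass were similar in this respect. The 11 translation factors had a median of 27.2 TPM in replicate 1 and 29.7 TPM in replicate 2, led by the elongation factor Tufm (114 ± 7.10), its exchange factor Tsfm (55.1 ± 0.460) and the membrane insertase Oxa1l (31.7 ± 0.856). The 12 genes often used as measures of mitochondrial mass encode proteins of the outer membrane, the inner membrane and the matrix. They had a median of 202 and 215 TPM, led by the channels Vdac3 (386 ± 8.45) and Vdac2 (245 ± 4.81) and the import receptor Tomm22 (253 ± 4.90). The median log2 ratios were -0.17 and -0.08, with 0 genes called. Of 8 regulators of mitochondrial biogenesis, 6 averaged at least 5 TPM, with a median log2 ratio of -0.29. Myc, a transcription factor of growth, was called, at 21.1 TPM in replicate 1 and 31.9 TPM in replicate 2 (log2 ratio -0.60). Nrf1 (39.3 ± 0.191 TPM) and Gabpa (22.8 ± 2.82), activators of nuclear respiratory genes, were not called. All errors are SD with n = 2. Myc was thus the 1 gene called in these 5 lists, where 5.61% of all genes were called, and it was lower in replicate 1, as were 557 of the 618 genes called.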

How the data were processed

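Total RNA-seq of 2 libraries was analysed from gene and transcript tables. The expected counts (not whole), TPM, posterior mean counts and TPM, their SDs and the TPM intervals are as the authors deposited them, per the file headers, on mm10 with the M4 release of GENCODE per the notes in the files. The aligner, quantification program and strand setting are not given in the sources used here. The level of the deposited intervals is not stated, and the TPM of 9 of the 15 mitochondrial genes in each library lay outside its own interval. Each effective length was 99 nt below the length, as for 100-nt reads.

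Names and coordinates came from GENCODE M21, which matched 42462 of 43346 Ensembl genes. Nuclear copies were found with BLAST 2.17.0. TPM with copies added are the summed reads over the effective length of the mitochondrial gene, scaled as the deposited TPM, with counting (Poisson) intervals. A gene with a mean TPM of 5 or more was called between embryos at 1.5-fold or more with deposited intervals apart. Pairs were called where intervals lay apart, with the same gene higher, in each library. Means and SDs are over 2 libraries, and no p-value was computed. Scalings used edgeR 4.0.16 (TMM) and DESeq2 1.42.0 (size factors) on expected counts rounded to whole numbers, in R 4.3.3, and spike-in counts. Other alternatives were pseudocounts, posterior values, undivided counts, means, 2-fold and single libraries. Adding copies to the share, the calls and the complexes was chosen after seeing the data. The rule for calls between embryos was tested on simulated counts with counting intervals. That simulation held no deposited intervals and no reads shared with copies, and the rule for pairs was not simulated.

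The members and lists were chosen with earlier results of these data known. Named are the 15 mitochondrial genes with values and the shortest and longest tRNA genes. Of each nuclear list, the 3 highest members by mean TPM and any member called are named, as are the 6 copies with the most reads. Outside that rule, Ndufb4 and Gm28439 were named after their values were seen.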

Additional observations from a re-analysis of the deposited data

How the results depend on the processing

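No paired analysis was possible because the 2 libraries form 1 group. The mean mitochondrial share of 3.45% of TPM was 1.71% of the summed counts and 5.25% with the copies added, and 2.96 to 3.93% in single libraries. The copies' share of reads was 22.9% with posterior mean counts, 34.2% as TPM and 27.5 to 28.0% in single libraries. At 2-fold, 0 of the 15 genes were called between embryos, and 4 were called at 1.5-fold with no minimum TPM. The median log2 ratio between embryos was 0.56 (TMM), 0.56 (DESeq2 size factors) and 0.72 (spike-ins) for the mitochondrial genes, and 0.33, 0.34 and 0.49 for the nuclear respiratory genes. The log2 ratio of mitochondrial to nuclear subunits in complex I was 0.65 with posterior TPM, 1.99 with counts not divided by length, 1.61 with means and 1.80 with copies. In complex IV these were 1.54, 2.19, 1.32 and 2.46. In complex V they were 2.70 with counts, 3.28 with means and 3.82 with copies, and in complex III 4.12 with counts. In single libraries they were 0.60 to 0.63, 1.16 to 1.28, 3.36 to 3.56 and 2.97 to 3.51. The log2 ratio of mt-Atp8 to mt-Atp6 reversed to -0.61 with counts per full length and -0.55 with copies, and was -0.070 to 0.30 in single libraries. Those of the other pairs were -4.72 to -3.97 (mt-Nd4l), 1.438 to 1.497 (mt-Rnr2) and -2.32 to -2.15 (mt-Nd6) and kept their direction and call. The cause of these shifts was not tested. Counting error was small at this depth. The values rest on 2 libraries, on the scaling used and on the division of reads between genes and copies.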
